A study of Homo sapiens with 16 samples.

Results

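The olfactory receptor genes of human chromosome 11 were taken as the protein-coding genes of that chromosome whose symbol is OR followed by digits, letters and digits, such as OR5P3. The gene table used (RefSeq, GRCh38.p14) held 171 such genes. Of these, 168 had a position on the chromosome 11 sequence of the build and are described here, out of 19821 protein-coding genes placed on chromosomes 1 to 22 and X. The other 3, OR8U8, OR8U9 and OR9G9, were placed by the table on other sequences filed under chromosome 11 and were not analysed here. Among the 168 genes, 55 belonged to the class I families OR51, OR52 and OR56, and 113 to class II families.

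Open chromatin had been profiled in U87, an established human glioblastoma cell line, by NicE-seq. In this assay the enzyme Nt.CviPII nicks accessible DNA in fixed nuclei, DNA polymerase I adds biotin-bearing nucleotides at the nicks, and the labelled fragments are captured and sequenced. By the treatment labels Asi_Bel, Asi_DMSO, Control_Bel and Control_DMSO, there were 4 groups of U87 cells. They were given AsiDNA and belinostat (the combination), AsiDNA and DMSO (AsiDNA alone), belinostat without AsiDNA (belinostat alone), and DMSO without AsiDNA (vehicle). Each had 4 libraries, 16 in all, and the 4 libraries of a group pointed to 1 peak list. Belinostat, which inhibits histone deacetylases, was used at 1 µM for 24 h. AsiDNA is a short DNA duplex that mimics a double-strand break and engages the repair signalling enzymes. Its dose and duration do not appear in the labels, and the protocol text names MTU87 and LTAU87 cells where the sample fields name U87. The sample fields give all 4 groups the same line, and the labels the same culture medium.

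Olfactory receptors are G protein-coupled receptors of the sensory neurons of the nose, where each neuron transcribes a single allele of a single receptor gene and keeps the rest of the repertoire in compact heterochromatin. The genes are small, lie in tandem clusters, and usually carry their whole coding sequence on 1 exon. Class I genes are the ancient, fish-like branch and in humans all lie in 1 cluster on the short arm of chromosome 11. Outside the olfactory epithelium most of the family is regarded as silent.

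A peak was assigned to a gene when it overlapped the gene, or the 1000 bp beyond either end, by at least 1 bp. Since 1 list stood for each group, no spread between replicates could be given and no p-value was computed. Intervals are Wilson 95% intervals and cover counting error only. The lists held 134865 peaks for the combination, 138273 for AsiDNA, 138937 for belinostat and 130318 for vehicle, of which 5733, 5715, 5936 and 5376 lay on chromosome 11. Read depth is unknown, so a longer list and more open chromatin cannot be told apart. The fold enrichment quoted for a peak is the authors' own value over background, and it was used to describe and rank peaks within a list as a percentile of that list. Of 6 glial and glioma markers, SOX9, VIM, CD44, NES and EGFR had a peak within 1000 bp of a gene end in all 4 lists, and GFAP had peaks inside the gene only. A share over all genes is not given for gene ends. By the assignment used here, all 6 markers had a peak in all 4 lists, as did 15770 of the 19821 protein-coding genes. The markers therefore tell little about the identity of the cells.

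The sequences upstream of 3 receptors carry much of what follows and are shown first, as the 250 bases before the annotated start on the coding strand (RefSeq, GRCh38.p14). OR6A2, on the minus strand at chr11:6799690-6799939, had the strongest peak near a receptor start. OR52N2, on the plus strand at chr11:5808674-5808923, was the other receptor whose upstream sequence lay under a peak in all 4 lists. In both, CG dinucleotides are in capitals.
OR6A2: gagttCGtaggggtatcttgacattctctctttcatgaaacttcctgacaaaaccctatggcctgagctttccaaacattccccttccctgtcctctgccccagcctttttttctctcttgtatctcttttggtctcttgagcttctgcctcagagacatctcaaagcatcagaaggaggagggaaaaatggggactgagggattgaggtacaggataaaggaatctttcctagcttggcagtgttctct
OR52N2: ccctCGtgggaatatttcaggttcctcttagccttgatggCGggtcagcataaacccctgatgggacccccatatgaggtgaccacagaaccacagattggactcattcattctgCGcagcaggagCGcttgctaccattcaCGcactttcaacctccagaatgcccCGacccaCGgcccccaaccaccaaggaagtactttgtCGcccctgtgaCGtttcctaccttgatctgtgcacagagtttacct
OR56B2, on the plus strand at chr11:5760903-5761152, had one of the strongest peaks inside a receptor gene and none over its upstream sequence, and was chosen for display after its values were seen. Its capitals mark TAATTA, a homeodomain core, and CCCTAGGG, a match to the CCCNNGGG core bound by EBF proteins, the type of element known from olfactory receptor promoters.
OR56B2: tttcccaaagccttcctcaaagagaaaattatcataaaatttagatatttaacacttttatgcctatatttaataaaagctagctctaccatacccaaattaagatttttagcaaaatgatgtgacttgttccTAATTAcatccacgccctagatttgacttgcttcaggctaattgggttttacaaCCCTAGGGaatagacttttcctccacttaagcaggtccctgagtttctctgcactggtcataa

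Few of the receptor genes had a peak. A peak was found at 20 of 168 genes in the combination list (11.9%, interval 7.84 to 17.7%), at 20 in the AsiDNA list, at 19 in the belinostat list (11.3%, 7.36 to 17.0%) and at 17 in the vehicle list (10.1%, 6.41 to 15.6%). These intervals overlapped throughout. Over all protein-coding genes the shares were 82.8% with the combination, 83.1% with AsiDNA, 83.6% with belinostat and 82.2% with vehicle. In total 24 receptors had a peak in at least 1 list, 15 of them in all 4, and 144 had none in any list. The plot of receptor genes by list shows every gene with a peak. Of the 24 genes with a peak, 15 (62.5%) kept it in all lists, against 92.0% of all protein-coding genes with a peak, 77.1% of those under 2000 bp, and 48.9% of the olfactory receptors of other chromosomes.

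**Figure D1:**
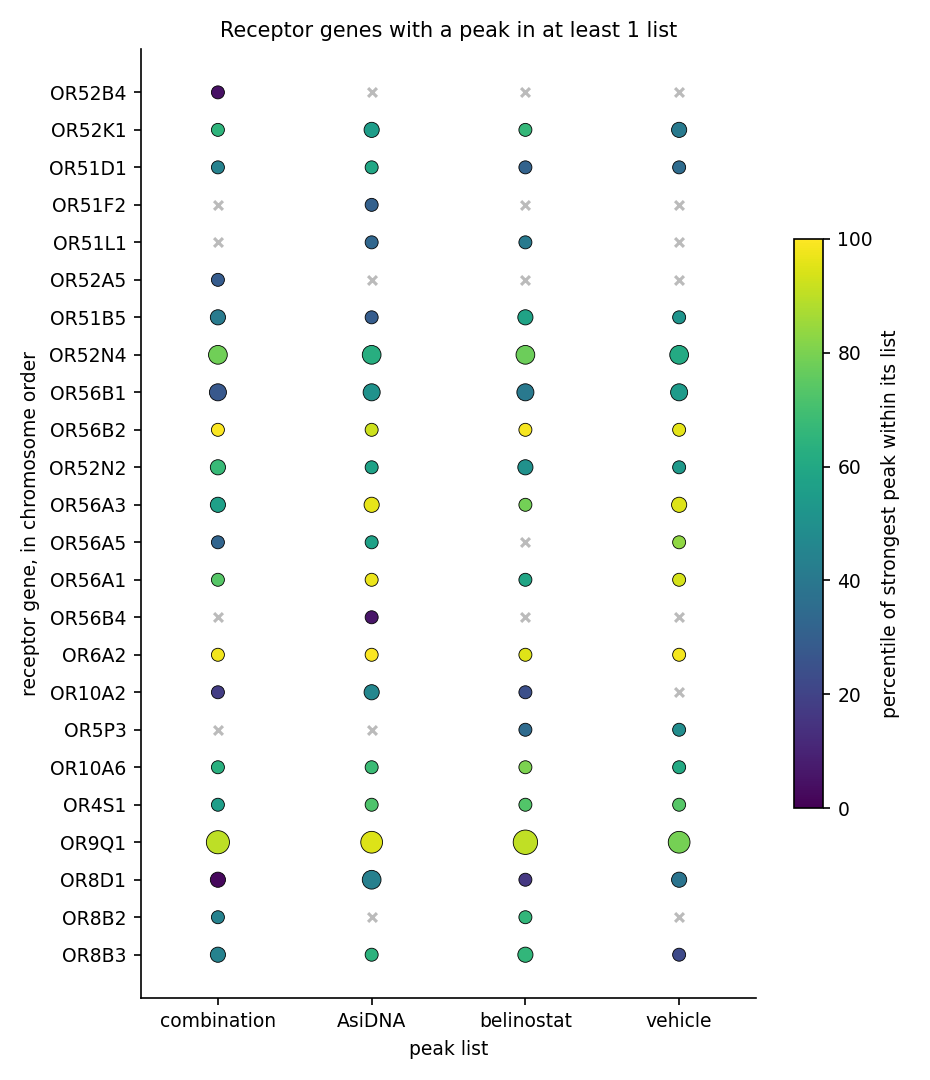
Receptor genes of chromosome 11 with a peak in at least 1 list, in chromosome order (rows), by peak list (columns). Each circle is a gene with a peak, its area grows with the number of peaks and its colour gives the within-list percentile of its strongest peak, and a cross marks no peak. 15 of the 24 genes have a circle in all 4 columns, and OR6A2 and OR56B2 are the ones above percentile 90 in every list.

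The window of a short gene is small, so the counts were split by gene length. Receptors under 2000 bp had a peak in at least 1 list at 5 of 92 genes (5.43%, 2.34 to 12.1%), and longer ones at 19 of 76 (25%, 16.6 to 35.8%). The median length was 10133.5 bp for receptors with a peak and 1003.5 bp for those without. Other genes of that size had a peak more often. All protein-coding genes under 2000 bp had a peak at 475 of 1210 (39.3%), and the other chromosome 11 genes under 2000 bp at 33 of 67 (49.3%, 37.7 to 60.9%). The 61 other genes that lie inside the receptor clusters had a peak at 77.0% with the combination and at 75.4% with AsiDNA, belinostat and vehicle. The 219 olfactory receptors of other chromosomes had a peak in any list at 47 genes (21.5%, 16.5 to 27.4%). The median gene length was 1103 bp for the chromosome 11 receptors and 5165 bp for those elsewhere. The shares per list are drawn in the plot by gene set.

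**Figure D2:**
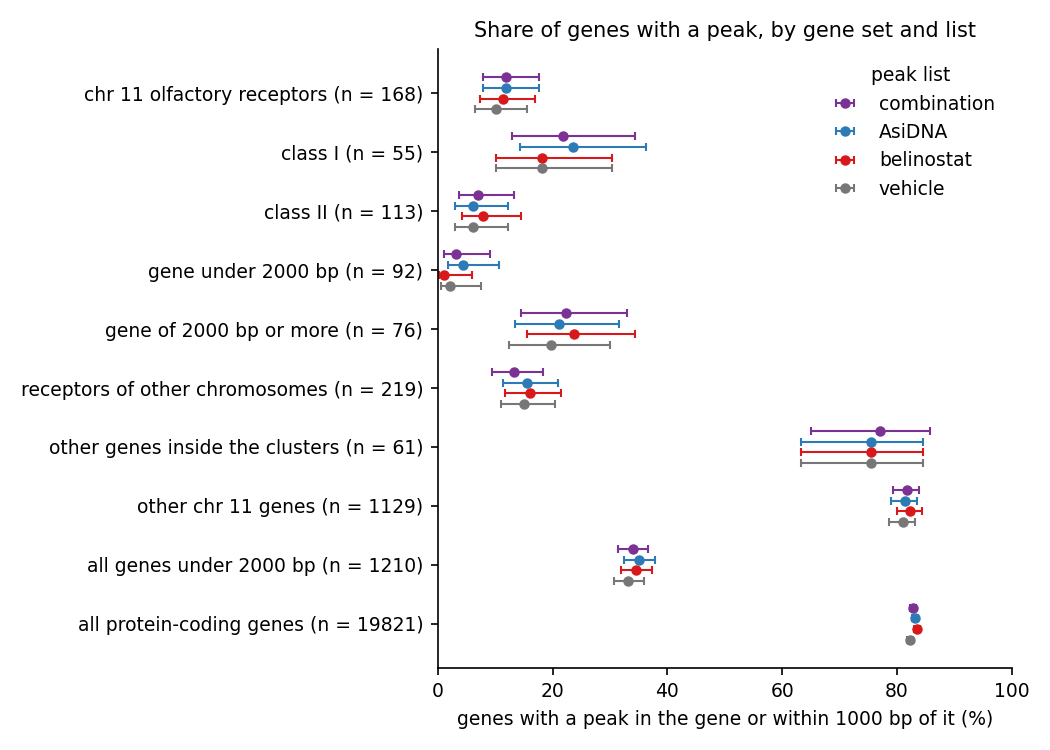
Share of genes with a peak in the gene or within 1000 bp of it (x axis, percent) for 10 gene sets (y axis, number of genes in brackets) and the 4 peak lists. Points are shares and bars Wilson 95% intervals (counting error only). The receptor sets lie under 40% in every list at their upper bounds, and the other genes of chromosome 11 near 82%.

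Class I receptors had a peak more often than class II receptors. Peaks in at least 1 list were found at 15 of 55 class I genes (27.3%, 17.3 to 40.2%) and 9 of 113 class II genes (7.96%, 4.25 to 14.4%). By list, class I had 12 genes with the combination, 13 with AsiDNA, 10 with belinostat and 10 with vehicle, and class II had 8, 7, 9 and 7. Among genes under 2000 bp the counts were 4 of 28 for class I and 1 of 64 for class II, and among longer genes 11 of 27 and 8 of 49. Both length groups thus had the higher share in class I, but their intervals overlapped within each length group. All 55 class I genes lie in 1 cluster, from OR52B4 to OR10A3, where 19 of 67 receptors had a peak. The class II receptors OR6A2, OR10A2, OR5P3 and OR10A6 of that cluster were among the 19. Within that cluster 15 of 55 class I genes had a peak, against 19 of 67 for both classes together. The class I share was thus not above that of the whole cluster. No class I gene lies elsewhere, and the parts of class and location were not tested. By subfamily, 3 of 4 OR56A and 3 of 3 OR56B genes had a peak, and 2 of 4 OR52N genes. These counts reuse peaks, since those of OR56A5 also count for OR56A3 and those of OR56B1 for OR52N4. OR56B4 counts through 1 weak peak in the AsiDNA list, at percentile 5.81. No gene of OR4C (9 genes), OR5M (6), OR5B (5), OR5D (5), OR4D (5) or OR52E (5) had one.

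Receptors known for uses outside the nose or for a defined odorant were looked up after the values were seen. OR51E1 and OR51E2, known from prostate, had no peak in any list, nor did OR2AT4, a sandalwood odorant receptor of skin keratinocytes. OR5AN1, a musk receptor, and OR5A1, a beta-ionone receptor, had none either.

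The strongest peak with its summit within 1000 bp of a receptor start was at OR6A2, a class II receptor linked to the soapy taste of coriander. Its fold enrichment was 17.6 with the combination, 17.6 with AsiDNA, 15.3 with belinostat and 14.6 with vehicle, at percentiles 97.9, 99.2, 95.1 and 98.1 of the lists. The summit lay 48, 54, 39 and 54 bp after the start, inside the gene. The summits of the 4 lists lay close together, and the peak ran on over the printed upstream sequence, which held 1 CG dinucleotide and 46.4% GC. The gene spans 6791736 to 6799689. Exons and introns are not given in the gene table used here, so peaks inside a gene were not divided further.

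At OR52N2 a peak of fold 8.46 with the combination, 6.56 with AsiDNA, 6.14 with belinostat and 6.05 with vehicle had its summit 261, 369, 304 and 325 bp before the start. It covered most of the printed OR52N2 sequence, in which 9 CG dinucleotides stand. A second OR52N2 peak, inside the gene at position 5815709 with the combination and 5815731 with belinostat, had folds of 7.39 and 5.33 and was absent from the AsiDNA and vehicle lists. That second peak did not change the presence pattern of the gene.

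Most summits at receptors with a known start lay more than 1000 bp from it. With 90 summits at receptors whose start was known, 21 lay within 1000 bp of it, at 7 genes. The peak of OR56B2 was 6065 to 6101 bp past the start and reached fold 19.7 with the combination, 12.4 with AsiDNA, 18.5 with belinostat and 13.0 with vehicle, at percentiles 99.2, 92.5, 98.8 and 95.9. OR9Q1, whose gene model spans 157736 bp, held 7 peaks with the combination, 6 with AsiDNA, 8 with belinostat and 6 with vehicle. Its first peak, 890 bp past the start with the combination and 1032 bp with vehicle, had folds of 13.3, 7.98, 13.2 and 7.43 in that order of lists. In OR52N4 the strongest peak had folds of 10.3 with the combination, 7.06 with AsiDNA, 9.81 with belinostat and 6.65 with vehicle. For these 3 peaks both lists with belinostat gave a percentile above that in both lists without it.

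OR56A1 and OR56A3 ran the other way. The OR56A1 peak, 6622 to 6646 bp past the start, had folds of 9.44 with the combination, 14.8 with AsiDNA, 6.99 with belinostat and 11.95 with vehicle, at percentiles 73.6, 97.1, 58.7 and 93.4. The strongest OR56A3 peak had folds of 6.98, 14.1, 10.0 and 12.5, at percentiles 56.3, 96.1, 78.6 and 94.8. In both genes the AsiDNA and vehicle lists held the peak above percentile 93 and the combination and belinostat lists below 79. In a comparison of ranks added after seeing the data, with lists of equal length, 20 merged regions in receptor windows were present in all 4 lists. Both lists with belinostat ranked lower in 7 of them (35.0%, 18.1 to 56.7%), against 28.1% of all such regions of the genome, and higher in 5 (25%, 11.2 to 46.9%), against 33.7%. Both genome shares fell within the receptor intervals, which are wide. Several of the 20 regions lie in the same gene, as in OR9Q1 and OR52N4, and are not independent of each other.

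The OR52N and OR56 genes, which neighbour each other in the class I cluster, show both directions side by side in the plot of that stretch. The window of OR56B1 lies inside the OR52N4 gene model, so these genes share 3 peaks per list and are not independent of each other. The strongest shared peak of each list had a fold of 4.51 with the combination, 5.95 with AsiDNA, 5.33 with belinostat and 6.14 with vehicle. In all, 6 receptors shared a peak with another receptor.

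**Figure D3:**
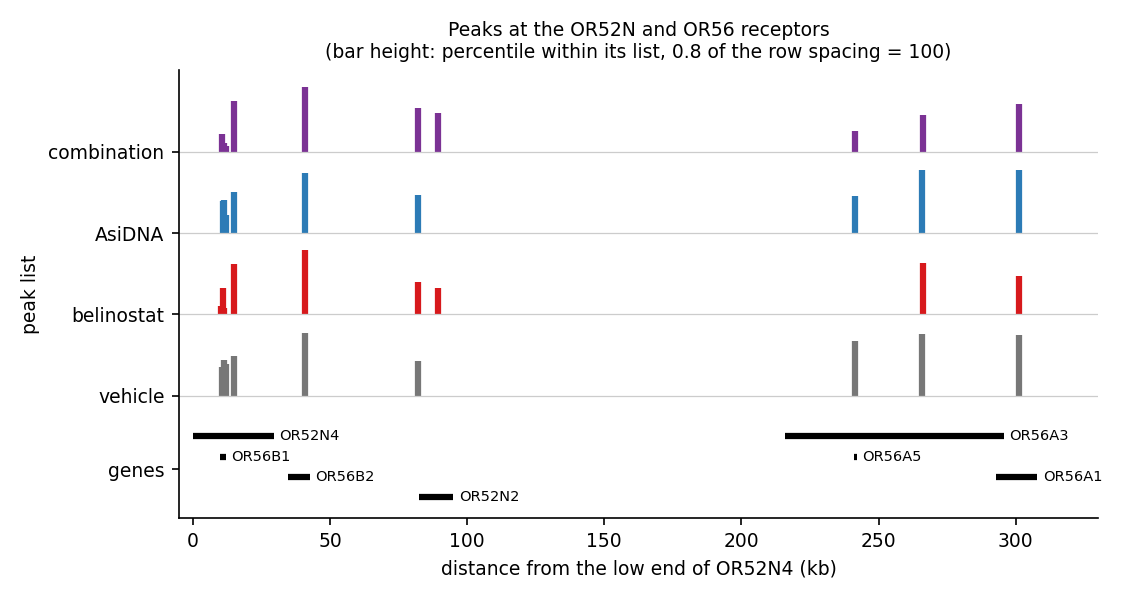
Peaks in the windows of 7 OR52N and OR56 receptor genes (x axis, distance in kb from the low end of OR52N4), 1 row per peak list. The height of a bar is the within-list percentile of the peak's fold enrichment, drawn to the same scale in each row, and black bars are the gene models. The OR56B2 peak is high in all 4 rows, and the OR56A3 and OR56A1 peaks are taller in the AsiDNA and vehicle rows than in the combination and belinostat rows.

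The other receptors with a peak in all 4 lists had lower folds than OR6A2 and OR56B2. OR10A6 had folds of 7.85 with the combination, 7.71 with AsiDNA, 10.4 with belinostat and 6.62 with vehicle. OR4S1, whose peak lay 755 to 815 bp beyond the gene, had folds of 6.93, 8.17, 8.96 and 8.04. OR52K1 had folds of 8.08, 6.34, 7.99 and 5.11 at its strongest peak. OR51D1, OR51B5, OR8D1 and OR8B3 completed the 15, with OR8D1, a receptor for the caramel odorant sotolone, the weakest at a top fold of 2.77 with the combination. Over all peaks in receptor windows, 31 in the combination, 32 in the AsiDNA, 30 in the belinostat and 26 in the vehicle list, the median percentile was 41.2, 49.7, 47.2 and 52.8. The peaks were thus of about middling strength for their lists.

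Presence at a receptor changed between lists at few genes. Between the combination and vehicle, 4 of 168 receptors gained a peak (2.38%, 0.930 to 5.96%), against 2.28% of all protein-coding genes. These were OR52B4, OR52A5, OR10A2 and OR8B2. OR5P3 alone lost its peak (0.595%, 0.105 to 3.29%), against 1.70% of all genes. Between AsiDNA and vehicle, OR51F2, OR51L1, OR56B4 and OR10A2 gained a peak (2.38%, against 2.15% of all genes) and OR5P3 lost it (against 1.23%). Between belinostat and vehicle, OR51L1, OR10A2 and OR8B2 gained a peak (1.79%, 0.609 to 5.12%, against 2.92%) and OR56A5 lost it (against 1.58%). The combination gained OR52B4, OR52A5 and OR8B2 over AsiDNA (1.79%, against 1.75%) and lost OR51F2, OR51L1 and OR56B4 (1.79%, against 2.08%). Over belinostat it gained OR52B4, OR52A5 and OR56A5 (1.79%, against 1.08%) and lost OR51L1 and OR5P3 (1.19%, 0.327 to 4.24%, against 1.84%). Every one of these genome-wide shares fell within the interval of the receptors, and the comparisons share lists with each other.

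By presence over the 4 lists, OR8B2 was the only receptor with a peak in both lists with belinostat and in neither list without it (0.595% of receptors; 0.737% of all genes had this pattern). Its peak at 124394443 to 124394807 had folds of 5.77 with the combination and 7.88 with belinostat, at percentiles 43.9 and 65.8, and was absent with AsiDNA and vehicle. It also falls in the window of the neighbour OR8B3. No receptor had the reverse pattern, a peak with AsiDNA and vehicle only, which 0.585% of all genes had. OR56A5 had folds of 4.85 with the combination, 6.54 with AsiDNA and 9.46 with vehicle, and no peak with belinostat, a pattern of 0.399% of all genes. That peak also lies inside the OR56A3 gene model.

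OR5P3, a receptor for coumarin, was the only one with a peak in both lists without AsiDNA and in neither with it, a pattern of 0.136% of all genes. The folds were 4.87 with belinostat and 5.68 with vehicle, at percentiles 34.7 and 48.8, and the summits lay 572 and 571 bp beyond the low end of the gene. No receptor had a peak with the combination and AsiDNA only, against 0.166% of all genes, or with the combination and vehicle only, against 0.0757%. OR51L1 had a peak in the AsiDNA list (fold 4.67) and the belinostat list (5.33) and none with the combination or vehicle, a pattern of 0.298% of all genes. OR10A2 had peaks in the combination, AsiDNA and belinostat lists and none in vehicle, as 0.938% of all genes did. Its peaks were at 2 places. The one 102 and 155 bp after the start was in the combination (fold 3.92) and AsiDNA (3.27) lists, and the one 1565 and 1739 bp after it in the AsiDNA (5.61) and belinostat (4.17) lists.

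Peaks in a single list were weak. OR52A5 (fold 4.62, percentile 28.6) and OR52B4 (3.0, percentile 4.45) had one in the combination list alone, a pattern of 0.439% of all genes. OR51F2 (4.52, percentile 30.5) and OR56B4 (3.04, percentile 5.81) had one in the AsiDNA list alone, a pattern of 0.747% of all genes. The OR51F2 peak also lies inside MMP26, a matrix metalloproteinase gene, and was the only receptor peak inside or within 1000 bp of a protein-coding gene that is not an olfactory receptor. OR52B4 and OR56B4 lost their peaks at a −log10 q of 5 or more, and at OR8D1 the same threshold left the AsiDNA and vehicle lists alone.

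Peaks over the promoters themselves were rarer still. A promoter sequence, from 250 bases before to 50 after the start, was available for 135 of the 168 receptors. A peak overlapped it at 4 genes in the combination list, 2 in the AsiDNA, 3 in the belinostat and 2 in the vehicle list, and at 4 genes in any (2.96%), against 63.2% of the 15812 promoters of all protein-coding genes. OR6A2 and OR52N2 accounted for the calls in all 4 lists. The others were OR56B1, in the combination and belinostat lists, and OR10A2, in the combination list, and in both the peak reached only the bases past the start.

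The receptor promoters differed from the rest in base composition. Their median GC content was 37.0%, against 62.7% for all genes, with a median of 1 CG dinucleotide against 22. Sites of the nicking enzyme (CCA, CCG or CCT, on both strands) numbered 19 per 300 bases in the median receptor promoter and 43 in the median promoter of all genes. The enzyme thus has fewer sites to nick in the receptor promoters, and the part of this in the low peak counts was not tested. Within a GC content under 40%, 1 of 86 receptor promoters (1.16%) and 148 of 841 other promoters (17.6%) had a peak in any list, with median nick sites of 16 and 18. OR52N2, at 55.3% GC with 14 CG dinucleotides in 300 bases, stood near the top of the receptor range of 24.3 to 57.0%. TAATTA stood on either strand in 33 of 135 receptor promoters (24.4%) and in 3.35% of all promoters, and CCCNNGGG in 11 (8.15%) and in 21.7%. Among promoters under 40% GC the shares were closer, 31.4% of receptor and 17.4% of other promoters for TAATTA, and 3.49% and 2.85% for CCCNNGGG. The OR56B2 promoter was 1 of 2 that held both motifs, which do not overlap each other in the sequence printed above.

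The receptors lie in 7 clusters when neighbours less than 1 Mb apart are joined, 8.79 Mb in all. Peaks were thinner there than elsewhere on the chromosome. The clusters held 30.3 peak summits per Mb in the combination list, 30.0 in the AsiDNA list, 30.4 in the belinostat list and 27.0 in the vehicle list, against 43.3, 43.2, 44.9 and 40.7 per Mb in the rest of chromosome 11. With receptors joined only where less than 200 kb apart, the cluster values were 17.3, 18.1, 17.7 and 15.7 per Mb. Outside every gene window the clusters held 22.9, 22, 23.9 and 20.6 per Mb, against 33.3, 33.0, 34.5 and 31.4. The receptor windows themselves held 22.8, 23.5, 22 and 19 per Mb, against 54.0, 54.1, 55.9 and 50.6 in the windows of other chromosome 11 genes. Vehicle had the lowest density in each of these sets, and it is also the shortest list.

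The clusters were unlike each other, as the plot of density by cluster shows. The cluster from OR52B4 to OR10A3 (67 receptors, all 55 class I genes among them) held 43.1, 43.9, 43.4 and 38.6 summits per Mb in the combination, AsiDNA, belinostat and vehicle lists, and 19 of the 24 receptors with a peak. It runs on past the last class I gene, OR52W1, over class II receptors, so these densities are not those of the class I genes alone. Many other genes lie in it. The cluster from OR9Q1 to OR10V1 (21 receptors, 1 with a peak) held 50.9, 46.2, 49.1 and 44.4 per Mb. The cluster from OR6X1 to OR8A1 (22 receptors, 3 with a peak) held 22, 24.5, 23.2 and 18.3. The cluster from OR4C46 to OR5AK2, with 48 receptors the second largest and with none of them at a peak, held 2.93, 3.35, 3.77 and 3.35 per Mb. OR4S1 was the receptor with a peak among the 7 of the cluster from OR4B1 to OR4A47, and none was found at OR4C13, OR4C12 and OR2AT4, which make up the others.

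**Figure D4:**
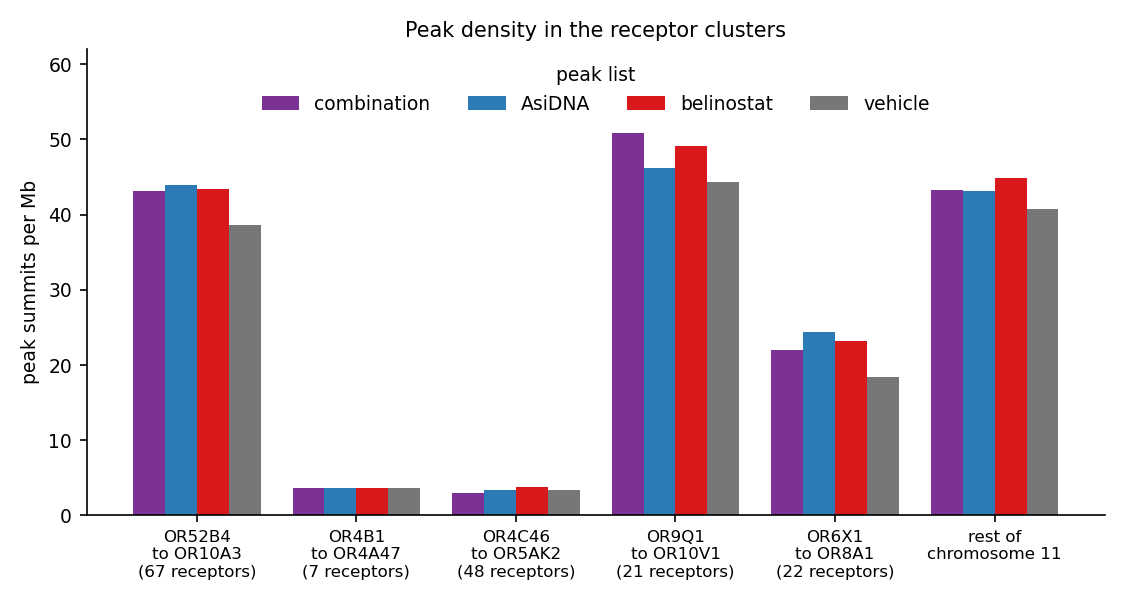
Peak summits per Mb (y axis) in the 5 receptor clusters with more than 2 receptors and in the rest of chromosome 11 (x axis), by peak list. Bars are single values with no error, since each group has 1 list. The clusters OR4B1 to OR4A47 and OR4C46 to OR5AK2 lie under 4 per Mb in all lists, and OR52B4 to OR10A3 and OR9Q1 to OR10V1 close to the rest of the chromosome.

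In the cluster from OR4C46 to OR5AK2 no list had a peak between 54603069 and 56624599, a stretch of 2021.5 kb with 43 receptors from OR4C46 to OR5M1. With its flank the peak-free stretch ran from 54418042 over 2206.6 kb, the third longest on chromosome 11, and the 2 longer ones contained no protein-coding gene. It held 45 protein-coding genes, the other 2 being TRIM48 and TRIM51, ubiquitin ligase family genes. The labels do not say whether such stretches could be mapped or were filtered, so closed chromatin and missing reads cannot be told apart here. Over chromosome 11, peak-free stretches of 100 kb or more held 79 of 168 receptors (47.0%) and 47 of 1129 other protein-coding genes (4.16%).

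Genes of other kinds inside the clusters show how sharply the peaks were divided. TRIM21, TRIM68, TRIM5, TRIM6, TRIM34 and TRIM22, a family of ubiquitin ligases with antiviral members, had peaks in all 4 lists. TRIM48 and TRIM51, in the long peak-free stretch, had none. MMP26, whose gene model spans receptors from OR51F1 to OR51A2, had peaks in all 4 lists too. The beta-globin genes HBB, HBD, HBG1, HBG2 and HBE1, which are embedded among class I receptors and are active in the erythroid lineage, had none in any list.

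Between the receptors, outside their windows, the peaks of the 4 lists merged into 299 regions, 138 of them in the window of another protein-coding gene. Present in all 4 lists were 164 of these (54.8%, 49.2 to 60.4%), against 51.1% in the rest of chromosome 11. Regions in both lists with belinostat only numbered 14 (4.68%, 2.81 to 7.70%), against 7.05% in the rest of chromosome 11 and 6.09% of the genome. Regions with AsiDNA and vehicle only numbered 11 (3.68%, 2.07 to 6.47%), against 4.75% and 5.04%. There were 4 with the combination and AsiDNA only (1.34%, against 1.20% and 1.23%). Those with belinostat and vehicle only numbered 3 (1.00%, against 0.790% and 0.890%). Another 3 had AsiDNA and belinostat only (1.00%, against 1.58% and 1.39%), and 2 the combination and vehicle only (0.669%, against 0.654% and 0.737%). In the plot of these patterns, the intervals between receptors overlap those of the rest of the chromosome for each pair of lists.

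**Figure D5:**
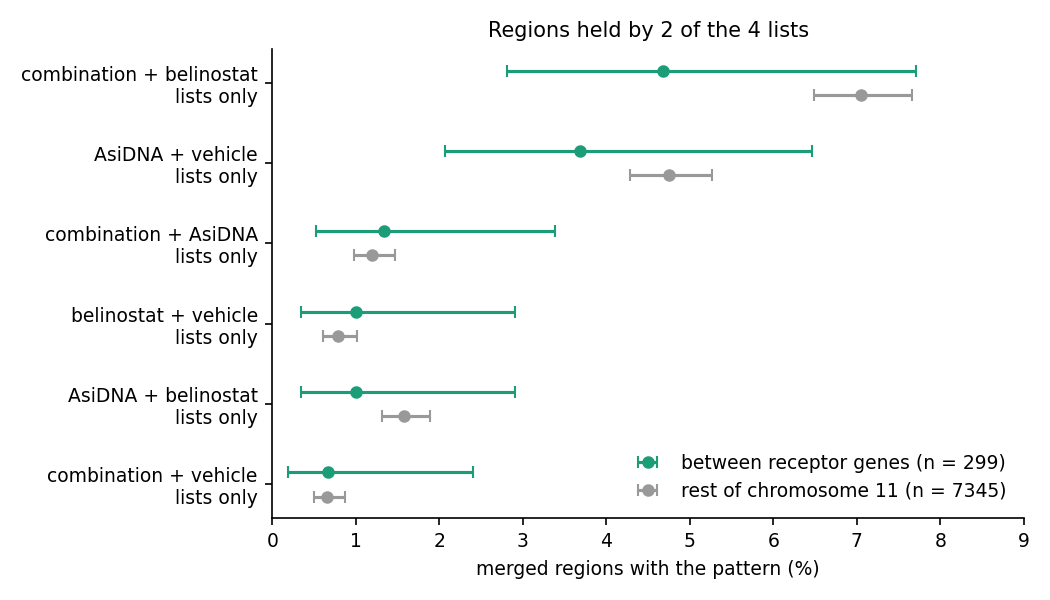
Share of merged peak regions present in just 2 of the 4 lists (x axis, percent), for each pair of lists (y axis), between the receptor genes (299 regions) and in the rest of chromosome 11 (7345 regions). Points are shares and bars Wilson 95% intervals (counting error only). The pair of lists with belinostat has the highest share in both sets, 4.68% and 7.05%, and the intervals overlap for every pair.

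Gains and losses between receptors were also close to the genome's. The combination had 51 regions gained over vehicle (17.1%, 13.2 to 21.7%, against 15.4% of all regions) and 27 lost (9.03%, 6.28 to 12.8%, against 12.9%). AsiDNA had 42 gained over vehicle (14%, against 13.1%) and 22 lost (7.36%, against 8.46%), and belinostat 53 gained (17.7%, against 17.9%) and 29 lost (9.70%, against 13.1%). The combination had 40 gained over AsiDNA (13.4%, against 13.3%) and 36 lost (12%, against 15.5%), and 29 gained over belinostat (9.70%, against 8.99%) and 29 lost (9.70%, against 11.2%). The share lost by the combination over vehicle had an interval that ended just below the genome's share, and the intervals of the other 9 held it.

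The strongest regions between receptors were present in every list. At 58334664 to 58335533, 22.6 kb from OR5B17, the folds were 21.3 with the combination, 18.4 with AsiDNA, 21.7 with belinostat and 18.1 with vehicle, each above percentile 99. At 6693897 to 6694353, 71.3 kb from OR2AG2, they were 20.6, 17.9, 23.3 and 16.2. At the edge of the long peak-free stretch, 56624600 to 56625171, 9.73 kb from OR5M1, they were 12.7, 11, 11.4 and 10.4. Another region of the same cluster, 56932746 to 56933288, 55.6 kb from OR5AK2, had 16.3, 13.0, 14.4 and 10.9. At 124297943 to 124298375, 4.46 kb from OR8D1, they were 15.5, 15.6, 11.4 and 16.7, so the belinostat list ranked it lowest, at percentile 84.5.

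Among regions that differed between lists, 6736541 to 6736894, 28.7 kb from OR2AG2, had folds of 6.65 with the combination and 7.77 with belinostat and no peak in the others. At 5863074 to 5863531, 5.38 kb from OR52E8, the folds were 7.94 with AsiDNA and 7.80 with vehicle, and the combination and belinostat lists had no peak. Near OR5B17, 58316201 to 58316809 had folds of 7.57 with the combination, 11.5 with AsiDNA and 6.62 with vehicle, and no peak with belinostat. At 58276075 to 58276603, 7.82 kb from OR10W1, the folds were 11.7 with AsiDNA, 4.40 with belinostat and 9.56 with vehicle, and the combination had no peak.

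Olfactory signalling genes were read through a list of 26 genes. By peaks within 1000 bp of a gene end, 15 had one in all 4 lists and 9 in none. EBF3, a transcription factor of the EBF family, had one with AsiDNA (fold 4.67) and vehicle (4.02) only, and GNAL, the olfactory G protein subunit, with AsiDNA only. In its gene or within 1000 bp of it, GNAL had 12 peaks with the combination, 12 with AsiDNA, 10 with belinostat and 13 with vehicle. A share over all genes is not given for gene ends. Over the whole gene and the 1000 bp beyond it, 18 of the 26 had a peak in all 4 lists, 3 in some lists and 5 in none, where 86.5% of all protein-coding genes had one in at least 1 list. In all 4 lists, 15770 of the 19821 protein-coding genes had one. The 5 without a peak were OMP, the receptor transport gene RTP1, STOML3, the G protein subunit GNG13 and the transcription factor LHX2. CNGA2, the main cyclic nucleotide channel subunit, had none at its gene ends. CNGA4, the partner subunit, lies in the cluster from OR52B4 to OR10A3, between the last class I gene, OR52W1, and the class II receptors. It had 1 peak in each list with folds of 14 with the combination, 11.6 with AsiDNA, 14.6 with belinostat and 10.5 with vehicle. Genes of the list with wide use in other tissues, such as ADCY3, GNB1, KDM1A, CBX5 and LBR, were among the 15. So were CNGB1, RTP2, SLC24A4, EMX2, NCAM2, EBF1 and EBF2, so the 15 were not limited to widely used genes.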

How the data were processed

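Per the labels' protocols, NicE-seq libraries were made from formaldehyde-fixed U87 nuclei, and the submitters' processing notes list MACS2, Bowtie2, Trim Galore 0.5.0, deepTools, Picard and SAMtools, with the build hg38. For their order and options, control input, blacklist and pooling of libraries, the answer is not given in the sources used here. Each deposited peak list gives, for every peak, the authors' fold enrichment (a ratio over background), q-value as −log10 q (1.30 at the lowest) and summit offset in bp. None was rescaled.

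Samples were grouped by the treatment field. Peaks on chromosomes 1 to 22 and X were set against gene positions, with a window of 1000 bp and an overlap of 1 bp, and merged into regions in the same way. Coordinates are 1-based. The 5 pairs of lists compared are descriptions, with Wilson 95% intervals. The design held no test, since each group has 1 list.

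The genes and lists were chosen with earlier results of these data known. Named receptors were the 10 present in all lists with the highest value of their lowest percentile and up to 4 of each other pattern; named regions were the 2 highest per cluster and per pattern. Other names were chosen after their values were seen. Alternatives were a −log10 q of 5, equal list length, a margin, other windows, summits, gene ends alone, 50% overlap and other cluster limits. Presence by merged regions and peaks kept on every sequence were further ones. Functions were tested on simulated data. Python 3.11.15, numpy 2.4.6, pandas 2.3.3, scipy 1.17.1 and matplotlib 3.10.9 were used.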

Additional observations from a re-analysis of the deposited data

Results flagged for a closer look

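OR51L1 had a peak with AsiDNA alone (fold enrichment 4.67) and with belinostat alone (5.33), and none with the combination or vehicle. Each drug given alone thus had a peak that vehicle lacked, and the pair of drugs did not. The difference was not tested. Between receptors, 3 of 299 regions (1.00%, against 1.39% of the genome's regions) followed the same pattern, among them 5007589 to 5007807, 2.05 kb beyond OR51L1, with folds of 4.44 with AsiDNA and 4.40 with belinostat. The opposite pattern, a peak with the combination and vehicle and none with either drug alone, was found at 2 regions (0.669%, against 0.737%), 6111751 to 6112081 near OR56B4 (3.46 with the combination and 3.55 with vehicle) and 59224547 to 59224918 (3.33 and 3.66). These differences were not tested either, and every peak named here lay below percentile 42 of their lists.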

How the results depend on the processing

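No paired analysis was possible because each group has 1 pooled peak list, and for the same reason no replicate could be left out. Of 297 values under alternatives for 41 results, 252 stayed within 1.5 times the reported value, and 45 moved beyond it. The 252 include 38 values from keeping peaks on every sequence. That setting cannot change a chromosome 11 count, so these 38 say nothing about stability. The balance of gained and lost turned in 2 comparisons. Regions of the combination over AsiDNA were 40 gained and 36 lost as reported, 31 and 32 at a −log10 q of 5, 26 each with the margin below and 7 and 10 at 200 kb. Receptors of the combination over belinostat were 3 gained and 2 lost as reported and 2 and 3 at equal list length. Regions with both belinostat lists only outnumbered those with AsiDNA and vehicle only, 14 to 11, but not at 200 kb, 3 to 4. Counting only peaks within 1000 bp of a gene end left 13 receptors with the combination, 13 with AsiDNA, 11 with belinostat and 10 with vehicle, with 8 in all lists and 1 with the combination and AsiDNA only. At a −log10 q of 5, receptors lost were 2 for the combination and 2 for belinostat over vehicle, 1 receptor (OR8D1) had AsiDNA and vehicle only, and 13 regions were lost with AsiDNA. Equal list length gave 2 receptors lost with the combination. A 500 bp window and the summit rule each gave 2 lost with belinostat. A 2000 bp window gave 3 lost with the combination, 2 with AsiDNA and 3 with belinostat, 1 with AsiDNA and vehicle only and 1 with the combination and AsiDNA only, and put OR51F2 in all lists. Asking for a −log10 q of 5 where present and no peak where absent left 8 regions with both belinostat lists only and 7 with AsiDNA and vehicle only. It left 15 regions lost with the combination, 9 lost with AsiDNA, and 34 gained and 17 lost with belinostat, all over vehicle, 26 gained over AsiDNA, and 14 gained and 16 lost over belinostat. Joining receptors less than 200 kb apart left 81 regions, 46 in all lists. Gains and losses were then 13 and 9 for the combination, 11 and 4 for AsiDNA and 17 and 9 for belinostat over vehicle, and for the combination 6 and 10 over belinostat. Densities fell to 17.3, 18.1, 17.7 and 15.7 per Mb with the combination, AsiDNA, belinostat and vehicle, since this setting drops the longer stretches between receptors. The margin setting gives no density. Leaving out the 3 longest gene models, a choice made after seeing the data, moved no count beyond 1.5 times. A count of 1 receptor moves past 1.5 times with a single gene. Read depth is unknown, so the absence of a peak is not absence of open chromatin.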

Other observations

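The olfactory receptor pseudogenes of chromosome 11, looked up after the data were seen, had fewer peaks than the intact genes. Of 195 pseudogenes, 7 had a peak with the combination, 9 with AsiDNA, 8 with belinostat and 6 with vehicle, and 11 had one in any list (5.64%, interval 3.18 to 9.82%). Among intact receptors under 2000 bp, nearer in size to the pseudogenes, the share in any list was 5.43%.

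The olfactory receptors of other chromosomes showed the same split by length. Of those under 2000 bp, 9 of 92 had a peak in any list (9.78%, 5.23 to 17.6%), and of the longer ones 38 of 127 (29.9%, 22.6 to 38.4%). In the signalling pathway, ANO2, the chloride channel of olfactory cilia, had peaks inside the gene in all 4 lists, with a top fold of 8.57 with the combination, 9.60 with AsiDNA, 8.11 with belinostat and 9.19 with vehicle, and none at its gene ends. EBF1, an EBF transcription factor with roles in B cells as well as olfactory neurons, held 51 peaks with the combination, 52 with AsiDNA, 53 with belinostat and 49 with vehicle.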
